A study of Mus musculus with 30 samples.

Results

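The zonation genes of the liver were followed by genotype. They are 10 genes of the 36103 in the deposited count table, picked by symbol. Of these, 6 are textbook markers of the pericentral zone (Glul, Cyp2e1, Cyp1a2, Oat, Axin2 and Lgr5) and 4 of the periportal zone (Cyp2f2, Hal, Sds and Gls2). RNA had been sequenced from the liver, gastrocnemius, diaphragm and heart of male mice at 5 weeks of age. The mice were Mtm1-/y, which carry a germline knock-out of the X-linked phosphoinositide phosphatase gene Mtm1 in every cell, or WT littermates, all on a pure 129Pas background. The liver was sampled in 3 WT and 4 Mtm1-/y libraries, the gastrocnemius and the heart in 4 and 4, and the diaphragm in 4 and 3. No treatment was given, and whole pieces of tissue were extracted, so that all zones and all cell types of the liver were mixed in each library.

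The liver is built of small lobules in which blood flows from the portal veins at the edge to a central vein. Hepatocytes along this path differ in what they make: those near the portal vein take up amino acids, make glucose and form urea, while those around the central vein make glutamine from the remaining ammonia and oxidise drugs and toxins. Endothelial cells of the central vein release Wnt ligands and R-spondin, and Wnt/beta-catenin signalling keeps the pericentral programme on.

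Promoters are shown for the 2 pericentral genes whose levels followed each other most closely over the livers (Cyp2e1 and Oat, described further on) and for the other members with a searched motif in the window. The sequences are from RefSeq (GRCm38.p6), run 5′ to 3′ on the strand of the gene from 250 bases before to 50 bases after its annotated start, and were held for 7 of the 10 members. Capitals mark a match on either strand to CTTTGAT or CTTTGAA, which are 2 forms of the core bound by TCF/LEF factors, the DNA-binding partners of beta-catenin.
Cyp2e1, chr7:140763569-140763868, plus strand: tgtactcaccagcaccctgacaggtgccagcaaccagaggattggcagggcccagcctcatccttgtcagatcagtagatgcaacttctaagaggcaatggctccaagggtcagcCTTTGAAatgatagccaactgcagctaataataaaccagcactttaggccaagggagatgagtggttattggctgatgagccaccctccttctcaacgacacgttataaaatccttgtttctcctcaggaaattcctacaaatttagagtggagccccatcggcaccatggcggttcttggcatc
Oat, chr7:132576349-132576648, minus strand: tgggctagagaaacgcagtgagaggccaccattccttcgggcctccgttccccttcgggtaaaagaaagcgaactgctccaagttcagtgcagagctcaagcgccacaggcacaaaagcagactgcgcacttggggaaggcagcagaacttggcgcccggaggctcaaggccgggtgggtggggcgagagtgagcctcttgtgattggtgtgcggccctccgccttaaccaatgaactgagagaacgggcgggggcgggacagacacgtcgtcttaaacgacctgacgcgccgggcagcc
Cyp1a2, chr9:57683606-57683905, minus strand: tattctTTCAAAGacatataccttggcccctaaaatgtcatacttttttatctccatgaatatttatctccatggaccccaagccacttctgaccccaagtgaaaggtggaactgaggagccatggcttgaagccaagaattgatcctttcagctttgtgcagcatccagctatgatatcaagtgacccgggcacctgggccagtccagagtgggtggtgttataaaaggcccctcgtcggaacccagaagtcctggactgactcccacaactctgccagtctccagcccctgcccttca
Hal, chr10:93488518-93488817, plus strand: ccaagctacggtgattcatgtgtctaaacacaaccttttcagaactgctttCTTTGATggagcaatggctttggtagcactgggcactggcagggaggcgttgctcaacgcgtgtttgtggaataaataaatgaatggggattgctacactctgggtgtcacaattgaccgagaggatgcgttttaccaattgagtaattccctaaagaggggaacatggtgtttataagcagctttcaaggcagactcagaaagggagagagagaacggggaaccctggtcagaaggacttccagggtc

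CTTTGAA begins at -135 from the start in Cyp2e1 and at -244, on the opposite strand, in Cyp1a2, and CTTTGAT begins at -199 in Hal, a periportal gene. Of all 32851 promoters of this length, 5.14% hold CTTTGAA and 3.73% hold CTTTGAT. Neither was found in the windows of Glul, Oat, Axin2 and Cyp2f2. The letters CAAAGTCCA of HNF4A (in 0.475% of all promoters) and TNGCGTG of the aryl hydrocarbon receptor (5.07%) were searched on both strands too and were in none of the 7 windows. A match describes the letters only.

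The libraries held 24873817 to 44289343 counts, and Alb, the main secreted product of hepatocytes, was at 87762 to 121837 CPM in the livers. Levels are CPM, counts scaled to the library's effective total after TMM normalization within the tissue, unless another scale is named. Mtm1 itself was at 12.5 to 19.0 CPM in the WT livers and at 3.37 to 6.39 CPM in the Mtm1-/y livers, with no overlap. Mtm1-/y liver 2 was the highest of the 7 livers for 7 of the 10 members, and Mtm1-/y liver 1 was the lowest for 5. Liver 2 held 108 CPM of the clock-driven factor Dbp against 0.811 to 11.3 in the other 6 livers. It also held 203 CPM of Nr1d1 against 35.5 to 102, and 8.35 CPM of Arntl against 19.5 to 29.8. Its summed Kupffer cell markers came to 46.6 CPM, the lowest value, and its summed striated muscle markers to 52.5 CPM, the highest. The part of these differences in the members' levels was not tested. Values without liver 2 are given beside the results that rest on it, with some values without liver 1.

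No zonation gene differed past the threshold between the genotypes in the liver. A call needed an adjusted p under 0.05 from edgeR's quasi-likelihood test together with a log2 fold change beyond 1 in either direction. Of the 10 members 0 were called, and of all 14305 genes tested 0 were (0%). Mtm1, the knocked-out gene, was not called by edgeR either (log2 fold change -1.60, edgeR adjusted p = 0.365, DESeq2 adjusted p = 1.2e-06). A count of 0 calls therefore does not show that a gene was unchanged. All 10 members passed the filter on low counts. At an unadjusted p under 0.05 stood 2 members, Axin2 and Sds, against 4.24% of all genes. DESeq2 called 0 members and 12 of 15343 genes (0.0782%). In none of the 10 did the genotypes separate without overlap, against 6.09% of all genes. In whole tissue, fewer cells of a zone and less RNA per cell cannot be told apart.

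**Figure D1:**
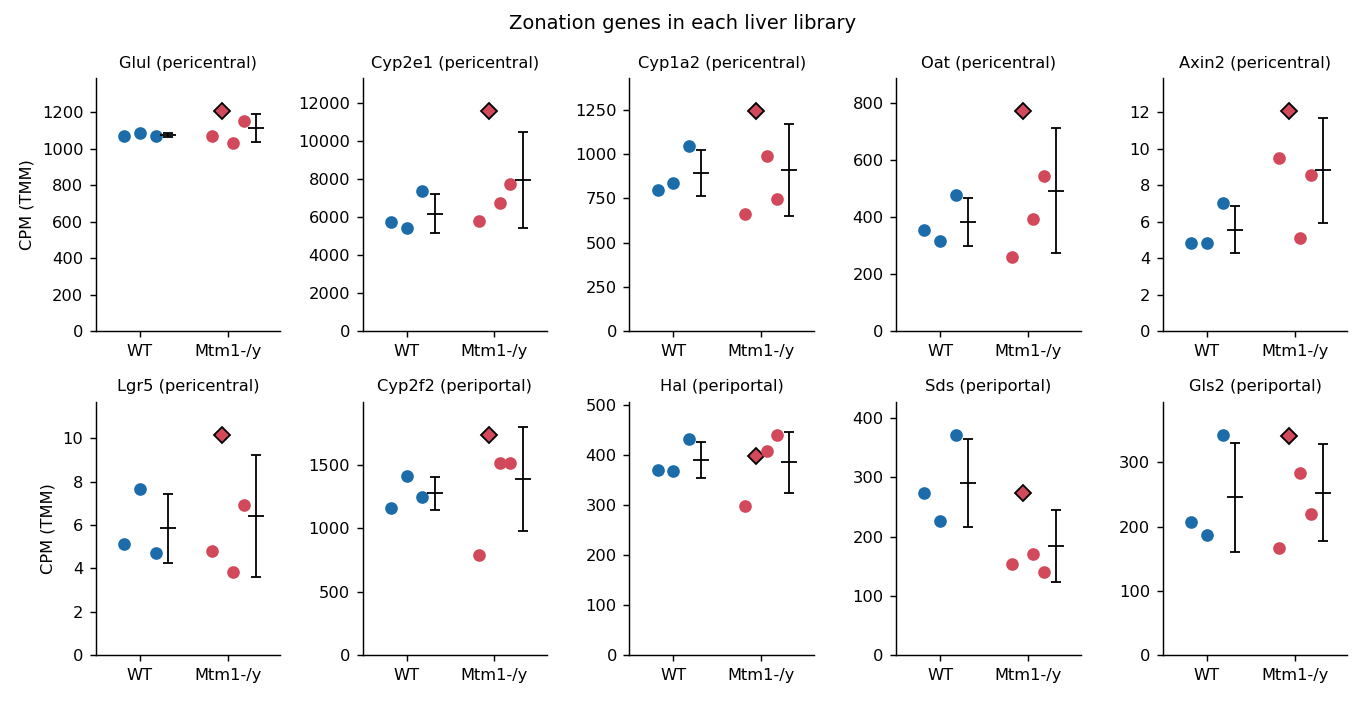
CPM after TMM scaling (linear axis from 0) of the 10 members in each liver library, WT in blue (n = 3) and Mtm1-/y in red (n = 4), with the group mean and SD beside the points. The outlined diamond is Mtm1-/y liver 2, the highest of 7 livers for 7 members; the groups overlap for all 10 genes.

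Glul (chromosome 1, 153899944 to 153909723, plus strand), glutamine synthetase, is made in the innermost rim of pericentral hepatocytes. It was at 1069, 1088 and 1067 CPM in the WT livers and at 1067, 1203, 1033 and 1151 CPM in the Mtm1-/y livers. The WT values lay within the range of the Mtm1-/y values, and the WT livers differed by only 1.04% (coefficient of variation). The log2 fold change was 0.05 (SE 0.10, 95% interval -0.18 to 0.28, edgeR adjusted p = 0.972), the narrowest interval of the 10 members. Its exons overlap those of Teddm2 and Mir8114.

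Cyp2e1 (chromosome 7, 140763739 to 140774987, plus strand) encodes the cytochrome that oxidises ethanol and paracetamol. It was at 5754, 5421 and 7355 CPM in WT and at 5806, 11552, 6727 and 7757 CPM in Mtm1-/y livers. Apart from Mtm1-/y liver 2, the libraries of both genotypes covered nearly the same range. On the log2 scale the fold change was 0.37 (SE 0.24, interval -0.18 to 0.91, edgeR adjusted p = 0.969). It was 0.13 without Mtm1-/y liver 2 and 0.49 without Mtm1-/y liver 1.

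Cyp1a2 (chromosome 9, 57676937 to 57683703, minus strand), which metabolises caffeine and aromatic amines, was at 797, 839 and 1044 CPM in WT and at 660, 1241, 990 and 747 CPM in Mtm1-/y livers. Both the highest and the lowest liver were Mtm1-/y. This gave a log2 fold change of 0.03 (SE 0.22, interval -0.48 to 0.53, edgeR adjusted p = 0.997). It turned to -0.16 without Mtm1-/y liver 2 and was 0.15 without Mtm1-/y liver 1.

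Oat (chromosome 7, 132557478 to 132576398, minus strand) encodes ornithine aminotransferase of the mitochondria. It was at 354, 316 and 478 CPM in WT and at 262, 770, 392 and 543 CPM in Mtm1-/y livers. The Mtm1-/y livers again held both ends of the range, with a coefficient of variation of 44.4% against 22.1% in WT. In log2, the fold change was 0.36 (SE 0.33, interval -0.39 to 1.12, edgeR adjusted p = 0.969). It was 0.06 without Mtm1-/y liver 2 and 0.57 without Mtm1-/y liver 1.

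The Wnt-linked members were low. Axin2 (chromosome 11, 108920349 to 108950783, plus strand), a brake on Wnt signalling that is itself switched on by it, was at 4.81, 4.81 and 7.03 CPM in WT and at 9.49, 12.0, 5.09 and 8.57 CPM in Mtm1-/y livers, from 149 to 351 counts. Of the 4 Mtm1-/y livers, 3 lay above every WT liver and liver 3 lay within the WT range. Its log2 fold change was 0.67 (SE 0.29, interval 0.02 to 1.32, edgeR adjusted p = 0.969), with adjusted values of 0.139 to 1.00 over 19 alternatives. The fold change was 0.48 without Mtm1-/y liver 2 and 0.63 without Mtm1-/y liver 1. Its exons overlap those of Gm11670.

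Lgr5 (chromosome 10, 115450311 to 115587780, minus strand), a receptor for R-spondins, was at 5.14, 7.68 and 4.70 CPM in WT and at 4.78, 10.2, 3.83 and 6.94 CPM in Mtm1-/y livers. The groups overlapped fully apart from the highest and the lowest liver, both Mtm1-/y. This came to a log2 fold change of 0.14 (SE 0.34, interval -0.63 to 0.90, edgeR adjusted p = 0.979). It was -0.17 without Mtm1-/y liver 2 and 0.25 without Mtm1-/y liver 1.

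Of the periportal genes, Sds (chromosome 5, 120476526 to 120483932, plus strand) had the largest difference. It encodes serine dehydratase, which turns serine into pyruvate for glucose synthesis and is known to be induced by glucagon and glucocorticoids. Its level was 274, 227 and 371 CPM in WT against 154, 274, 170 and 140 CPM in Mtm1-/y livers. All Mtm1-/y livers but liver 2 lay below every WT liver. The log2 fold change was -0.65 (SE 0.25, interval -1.23 to -0.08, edgeR adjusted p = 0.969). Liver 2 was the only Mtm1-/y liver within the WT range. Leaving it out therefore removed the overlap by that choice, at 227 to 371 against 140 to 170 CPM. The log2 fold change was then -0.91 with an edgeR adjusted p of 0.511, and -0.90 with a DESeq2 adjusted p of 0.00235, short of the fold threshold by both tools. The shares of all genes that separated or passed that adjusted p in this set of livers were not counted. With all livers the DESeq2 adjusted p of Sds was 0.890. In the DESeq2 fits with any other liver left out it was 0.659 or more. Exons of Gm15690 and Plbd2 overlap those of Sds.

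Cyp2f2 (chromosome 7, 27119909 to 27133660, plus strand), a cytochrome that activates naphthalene, was at 1162, 1417 and 1251 CPM in WT and at 793, 1737, 1513 and 1513 CPM in Mtm1-/y livers. Of the Mtm1-/y livers 3 lay above the WT livers and liver 1 below all of them. Its log2 fold change was 0.12 (SE 0.24, interval -0.43 to 0.67, edgeR adjusted p = 0.972). It was -0.0043 without Mtm1-/y liver 2 and 0.31 without Mtm1-/y liver 1. Exons of Gm15883 overlap those of Cyp2f2.

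Hal (chromosome 10, 93488768 to 93519304, plus strand) encodes histidine ammonia-lyase, the first step of histidine breakdown. Its level was 370, 368 and 432 CPM in WT against 298, 397, 408 and 440 CPM in Mtm1-/y livers. Liver 1 of the Mtm1-/y mice was the lowest, and the other values were mixed. On the log2 scale the fold change was -0.02 (SE 0.15, interval -0.35 to 0.32, edgeR adjusted p = 0.997).

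Gls2 (chromosome 10, 128194457 to 128210004, plus strand), the liver form of glutaminase, which frees ammonia from glutamine upstream of the urea cycle, was at 207, 187 and 343 CPM in WT and at 166, 342, 284 and 220 CPM in Mtm1-/y livers. Values of both genotypes covered nearly the same range. Its log2 fold change was 0.04 (SE 0.28, interval -0.60 to 0.68, edgeR adjusted p = 0.992). It was -0.14 without Mtm1-/y liver 2 and 0.20 without Mtm1-/y liver 1. Its exons overlap those of Spryd4.

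**Figure D2:**
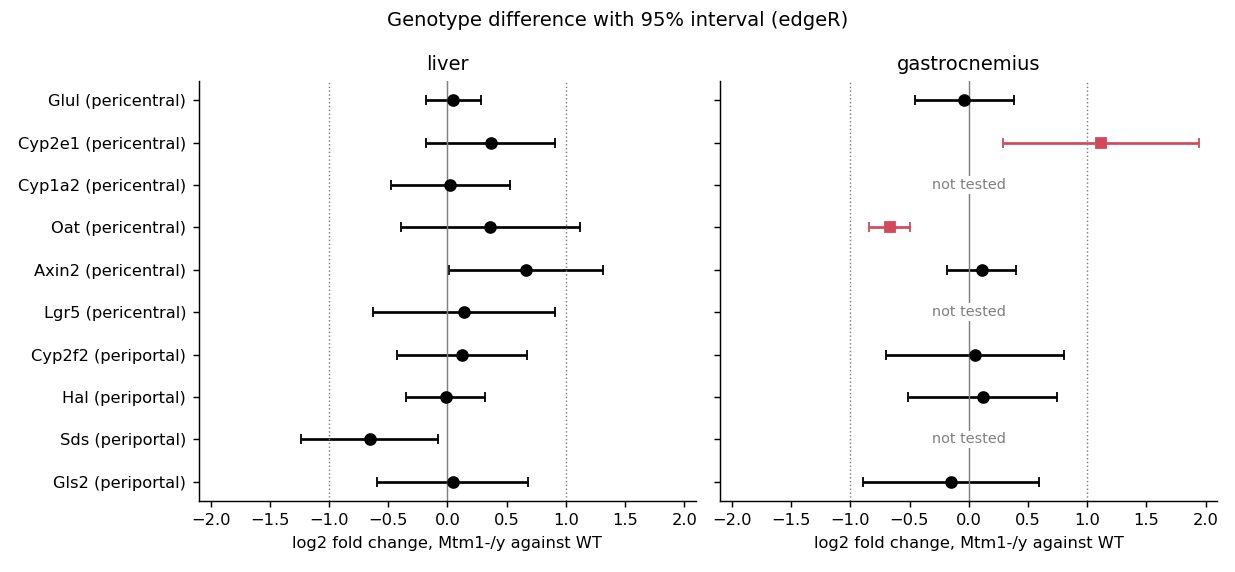
Log2 fold change of Mtm1-/y against WT with its 95% interval from edgeR for each member in the liver (left) and the gastrocnemius (right), with dotted lines at the fold threshold of 1. Black circles are members that did not pass an adjusted p of 0.05 and red squares are those that did, Cyp2e1 and Oat in the gastrocnemius; 3 members were too low to be tested there.

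The pericentral members had a median log2 fold change of 0.25 with 6 of 6 above 0, and the periportal members 0.01 with 2 of 4 above 0, beside 0.01 over all genes tested, of which 51.1% were above 0. Without Mtm1-/y liver 2 the pericentral median was 0.037 with 4 of 6 above 0 and the periportal median -0.083 with 0 of 4, beside 50.9% of all genes above 0. With Mtm1-/y liver 1 left out instead, the pericentral median was 0.37 with 6 of 6 above 0. The periportal median was then 0.14 with 3 of 4, beside 51.1% of all genes. The balance of the zones was taken in each liver as the mean log2 CPM of the pericentral members minus that of the periportal members. It was -1.07, -0.97 and -1.18 in WT and -0.54, -0.55, -1.10 and -0.62 in Mtm1-/y livers. Livers 1, 2 and 4 of the Mtm1-/y mice lay above every WT liver and liver 3 lay among them. The means were -1.07 ± 0.11 (SD, n = 3) and -0.70 ± 0.26 (SD, n = 4), a difference of 0.37 that is given as a description. Leaving out each liver in turn gave 0.32 to 0.50, and 0.32 without Mtm1-/y liver 2. Members were not left out in turn, and Axin2 (0.67) and Sds (-0.65) had the largest log2 fold changes in it. The further pericentral and periportal genes given below had median log2 fold changes of 0.10 and 0.23, the higher one periportal.

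Other zonation genes were read from lists. Of 25 further pericentral genes, 0 passed an adjusted p of 0.05 in either direction in the liver and the median log2 fold change was 0.10. The drug-metabolising cytochromes Cyp3a11 (log2 fold change 0.10) and Cyp2c29 (0.29) were the most abundant, and the dioxin receptor Ahr had 50.6 ± 11.9 CPM in WT against 36.9 ± 2.11 CPM in Mtm1-/y livers (log2 fold change -0.45, edgeR adjusted p = 0.969). Of 16 further periportal genes 0 passed, with a median of 0.23. Among these, Pck1, the key enzyme of glucose synthesis, was at 4352, 4411 and 5331 CPM in WT against 3509, 3775, 3102 and 3424 CPM in Mtm1-/y livers. The genotypes did not overlap for Pck1 (log2 fold change -0.44, SE 0.12, edgeR adjusted p = 0.969), nor for the lipid transporter Mfsd2a (-0.58, SE 0.16, adjusted p = 0.969). Of the 13 genes of urea formation and ammonia handling 0 passed (median -0.08, Cps1 -0.08), and of 9 genes of histidine, serine and glycine breakdown 0 passed (median 0.01), with Sdsl, the paralogue of Sds, at -0.56 (edgeR adjusted p = 0.969).

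Of 24 regulators of Wnt signalling in the lobule, 22 were tested and 0 passed (median 0.03). Beta-catenin itself, Ctnnb1, had a log2 fold change of 0.12. Tcf7, a transcription factor of the pathway and like Axin2 a known target of it, was at 3.80 ± 0.933 CPM in WT against 5.72 ± 0.919 CPM in Mtm1-/y livers (log2 fold change 0.59, SE 0.22, edgeR adjusted p = 0.969).

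Of 13 genes of the fasting and glucocorticoid response 0 passed with edgeR (median -0.04). Tat, tyrosine aminotransferase, a classic glucocorticoid-induced enzyme, was at 2922, 2859 and 3324 CPM in WT and at 1871, 1524, 1590 and 2070 CPM in Mtm1-/y livers. The genotypes did not overlap, and liver 2 was the lowest here, unlike for Sds. The log2 fold change was -0.78 (SE 0.14) with an edgeR adjusted p of 0.505 and a DESeq2 adjusted p of 0.000341. Of the 14305 liver genes tested by edgeR, 25 had a DESeq2 adjusted p under 0.05. Of 13 clock genes 0 passed, with a median of -0.08, but their summed level ran from 236 to 819 CPM in the Mtm1-/y livers against 329 to 442 CPM in WT.

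In none of the 9 cell type lists (hepatocytes, Kupffer cells, endothelium, cholangiocytes, stellate cells, erythroid cells, adipocytes, exocrine pancreas and striated muscle) did a gene pass an edgeR adjusted p of 0.05 in the liver, while DESeq2 passed 2 genes, both of striated muscle. The summed hepatocyte markers were at 155710 to 172268 CPM in WT against 163608 to 193789 CPM in Mtm1-/y livers. Of 6 Kupffer cell markers 0 passed (sum 191 to 208 against 46.6 to 208 CPM, median log2 fold change -0.56). Of 6 markers of liver endothelium, the source of Wnt2 and Rspo3, 0 passed as well (237 to 273 against 186 to 283 CPM). Striated muscle markers had a median log2 fold change of 1.04, with 0 of 6 past an adjusted p of 0.05 by edgeR (9.30 to 12.6 against 6.67 to 52.5 CPM) and 2 by DESeq2. These were the myosin light chain gene Myl2 (DESeq2 log2 fold change 5.52, adjusted p = 0.0247), at 0 to 0.0376 CPM in WT against 0.108 to 2.28 CPM in Mtm1-/y livers with no overlap, and the myosin heavy chain gene Myh6 (3.91, DESeq2 adjusted p = 0.0414), at 0.0514 to 0.129 against 0.0360 to 1.99 CPM. In the liver, no listed marker of hepatocytes, Kupffer cells or endothelium was at 0 in either group. The part of these markers in the members' values was not tested.

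Members mostly varied in the same direction over the 7 livers, within a zone and between the zones. Pairs of other genes were not computed as a background. In all 15 pericentral pairs Pearson's r of log2 CPM was above 0, with a median of 0.71, and in all 6 periportal pairs (median 0.59), beside 21 of 24 pairs between the zones (median 0.39). Of the 45 pairs, 2 passed an exact permutation test with Benjamini-Hochberg adjustment over the pairs. Cyp2e1 and Oat had r = 0.95 (two-sided exact permutation p = 0.00119, adjusted p = 0.0491), Spearman's rho = 0.89 (exact permutation p = 0.0123, adjusted p = 0.277), and r = 0.91 without the 2 livers farthest from the median of Cyp2e1. For Glul and Lgr5 r was 0.90 (exact permutation p = 0.00218, adjusted p = 0.0491), rho was 0.93 (exact permutation p = 0.00675, adjusted p = 0.277), and r was 0.90 without the 2 farthest livers.

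Part of this rested on Mtm1-/y liver 2. Without it the median r fell to 0.36 in pericentral, 0.50 in periportal and 0.26 in mixed pairs. Of the 45 pairs 0 passed (Cyp2e1 with Oat r = 0.90, exact permutation p = 0.0167, adjusted p = 0.313). The smallest exact permutation p, 0.00139 (adjusted p = 0.0625), was that of Oat with the periportal gene Hal (r = 0.95). It is the lowest p that 6 livers allow, so a single pair could not pass on its own, and the count of 0 is partly set by the number of livers. With 3 and 4 livers per genotype no r was computed within a genotype.

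**Figure D3:**
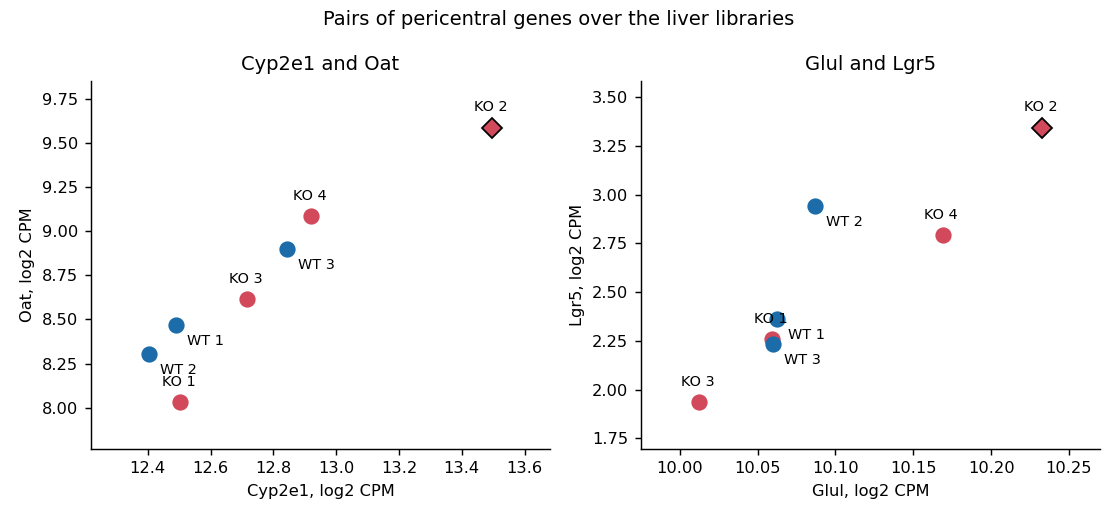
Log2 CPM of Oat against Cyp2e1 (left) and of Lgr5 against Glul (right) in the 7 livers, WT in blue and Mtm1-/y (KO) in red, each point labelled with its genotype and replicate number. The diamond, Mtm1-/y liver 2, is at the upper end of both plots, and r is 0.95 and 0.90 with it included.

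Per kilobase of exon, Cyp2e1 had the highest level in WT liver, at 2862 ± 479 CPM per kb (SD, n = 3), followed by Cyp2f2 (630 ± 64.0), Cyp1a2 (444 ± 65.6) and Glul (323 ± 3.37). Sds (172 ± 43.6) and Oat (162 ± 35.9) differed by less than their SDs, as did Gls2 (70.7 ± 24.4) and Hal (70.3 ± 6.60). Axin2 (1.01 ± 0.233) and Lgr5 (0.569 ± 0.157) came last.

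In WT mice 8 of the 10 members were called higher in liver than in gastrocnemius by edgeR in 1 fit of the 15 WT libraries, where 25.7% of all 17725 genes were (56.7% in either direction). Against the diaphragm 8 were higher (19.4% of all genes) and 1, Axin2, was lower (50% of all genes in either direction), and against the heart 8 were higher (22.2%, and 52.8% in either direction). Between muscles, 54.4% (gastrocnemius against diaphragm), 61.3% (gastrocnemius against heart) and 51.7% (diaphragm against heart) of all genes passed an adjusted p of 0.05. Levels in this comparison are CPM scaled over the 15 WT libraries. Glul was at 1310 ± 19.6 CPM (SD, n = 3) in liver, 471 ± 129 in diaphragm, 356 ± 44.8 in gastrocnemius and 331 ± 22.4 in heart (n = 4 each). The liver was above each muscle (log2 difference 1.48 to 1.98), the gastrocnemius did not differ past the threshold from the diaphragm (edgeR adjusted p = 0.0595) or the heart (0.609), and the diaphragm was above the heart (0.51, edgeR adjusted p = 0.0225).

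Oat was the most even of the strong members, at 466 ± 104 CPM in liver, 316 ± 23.0 in gastrocnemius, 257 ± 20.5 in heart and 254 ± 13.1 in diaphragm. The liver was higher by a log2 difference of 0.56, 0.86 and 0.88 respectively (edgeR adjusted p = 0.00151, 4.2e-05 and 4.6e-05), below the fold threshold. Diaphragm and heart did not differ past the threshold (adjusted p = 0.929).

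Axin2 was not highest in the liver. Its level was 13.5 ± 1.32 CPM in diaphragm, 9.58 ± 1.47 in gastrocnemius, 6.77 ± 1.59 in liver and 4.78 ± 3.81 in heart. Of the neighbours in this order none differed past the threshold (edgeR adjusted p = 0.303, 0.294 and 0.308), while the diaphragm was above the liver by 1.00 (log2, adjusted p = 0.0495) and above the heart as well (edgeR adjusted p = 0.00644). With DESeq2 size factors the difference of liver minus diaphragm was -0.93 and no longer past the thresholds, and the call was also lost in 12 of 15 fits with 1 WT library left out.

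Lgr5 was at 7.12 ± 1.99 CPM in liver, 1.22 ± 0.197 in diaphragm, 0.226 ± 0.181 in gastrocnemius and 0.132 ± 0.0411 in heart, the last 2 not differing past the threshold (edgeR adjusted p = 0.165). The remaining 6 members were strongest in liver and next in diaphragm by group mean. In plain CPM, Alb was at 27.7%, 17.4% and 20.5% of the WT liver mean in WT diaphragms 1, 2 and 4. It was at 0.293% in WT diaphragm 3, the lowest WT diaphragm for each of these 6 members and for Glul. Gastrocnemius and heart did not differ past the threshold for Cyp2e1, Cyp1a2, Hal and Gls2 (edgeR adjusted p from 0.113 to 0.447). Cyp2f2 was higher in gastrocnemius (1.76 ± 0.706 against 0.238 ± 0.177 CPM, adjusted p = 0.0138) and Sds in heart (5.39 ± 7.67 against 0.187 ± 0.120 CPM, adjusted p = 0.0107), where 1 library held 16.8 CPM.

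**Figure D4:**
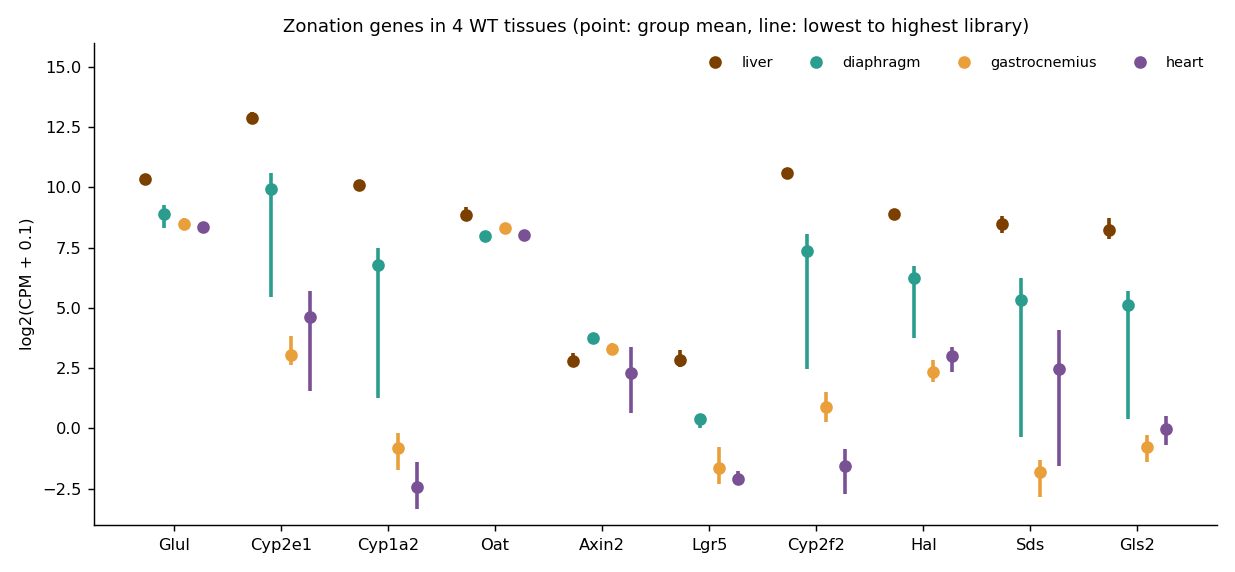
Log2(CPM + 0.1) of the 10 members in WT liver (n = 3), diaphragm, gastrocnemius and heart (n = 4 each), with CPM scaled over the 15 WT libraries, points at the log2 of the group mean and lines from the lowest to the highest library. Oat and Axin2 lie close together over the tissues, and 6 members spread widely in the diaphragm.

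Likeness of pattern was measured as Pearson's r of log2(CPM + 0.1) over the 8 group means, among 12503 genes. The points share 4 tissues, so that r mostly follows the contrast of liver and muscle. The nearest were Pon1 and Cdo1 for Cyp2e1 (r = 1.00 and 0.999), Afm and Asgr1 for Cyp1a2 (both 1.00), Cyp4f13 and Hectd3 for Glul (both 0.999), and AC169509.1 and Aox1 for Lgr5 (0.999 and 0.997). For the periportal genes they were Gjb1 and Saa1 for Cyp2f2 (both 0.999), Trf and Fetub for Gls2 (1.00 and 0.999), and Sntg2 and Col18a1 for Hal (both 0.998). Oat (Zfp942, 0.960, and Zfp946, 0.952) and Axin2 (Rps12, 0.939, and Sh2b2, 0.932) had no gene as close.

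Alb differed widely among the diaphragm libraries. It was at 26579, 17700, 294 and 19262 CPM in WT and at 1685, 33827 and 565 CPM in Mtm1-/y diaphragms, a range of 112-fold in plain CPM, and the 12 hepatocyte markers, none of them at 0, summed to 618 to 45331 and 1022 to 59888 CPM. Cyp1a2 was at 207, 134, 2.81 and 169 CPM in WT and at 15.2, 306 and 4.95 CPM in Mtm1-/y diaphragms. Set against Alb, it stayed at 7.55 to 9.54 counts per 1000 Alb counts in the 7 diaphragms, inside the 5.42 to 11.2 of the 7 livers.

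Sds lay at 1.62 to 3.74 counts per 1000 Alb counts in diaphragm and 1.27 to 3.51 in liver. Cyp2f2 was at 11.6 to 28.2 against 6.51 to 16.1, and Gls2 at 2.13 to 4.88 against 1.37 to 3.24. Cyp2e1 lay at 57.5 to 179 in diaphragm against 47.7 to 104 in liver, and Hal at 4.53 to 54.7 against 2.44 to 4.42, with no overlap. The ratios of Glul and Oat to Alb varied far more than these. Glul was at 595, 504, 381 and 731 CPM in WT against 412, 664 and 460 CPM in Mtm1-/y diaphragms, and 19.6 to 1296 counts per 1000 Alb counts. Oat was at 276, 312, 311 and 295 CPM in WT against 197, 287 and 207 CPM in Mtm1-/y diaphragms, and 8.47 to 1058 counts per 1000 Alb counts.

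**Figure D5:**
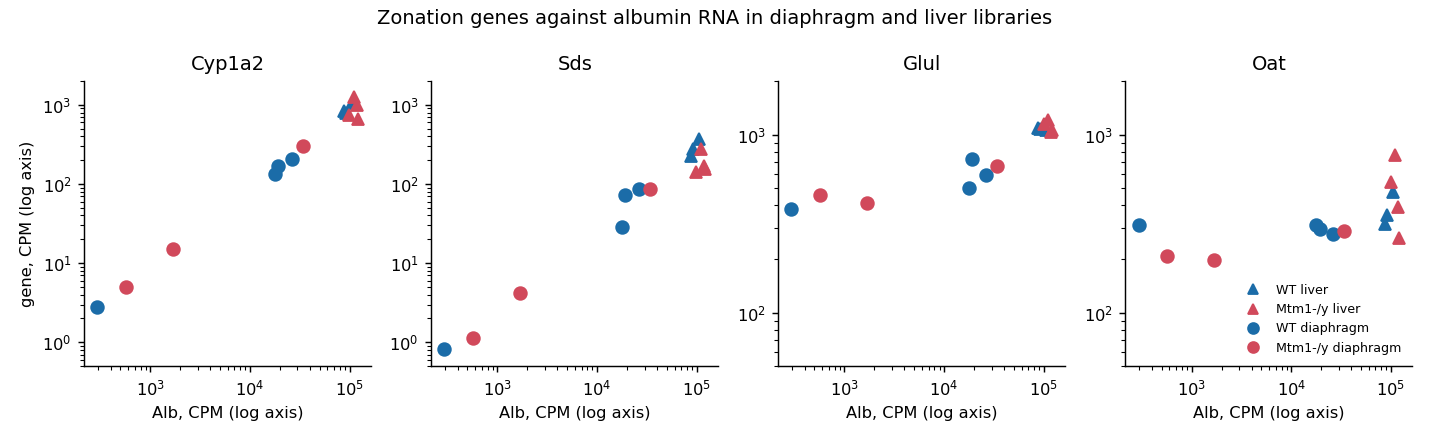
CPM of Cyp1a2, Sds, Glul and Oat against CPM of Alb, both on log axes, in the 7 diaphragms (circles) and 7 livers (triangles), WT in blue and Mtm1-/y in red. Cyp1a2 and Sds are high where Alb is high over its 112-fold range in the diaphragms, while Glul and Oat span only 1.92-fold and 1.59-fold there.

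By genotype, all 10 members were tested in the diaphragm and 0 were called by edgeR (0.0119% of all 16796 genes). At an unadjusted p under 0.05 stood 0 members (10.8% of all genes), 0 separated without overlap (9.97%) and DESeq2 called 0 (1.63%). Intervals of the liver-led members were wide, from -3.93 to 3.46 for Cyp1a2 (log2), with Alb spread as given above. Log2 fold changes from a fit with log2 Alb as a covariate are given further on for Glul, Cyp1a2, Lgr5, Cyp2f2 and Gls2, whose sign changed in it. Oat had a log2 fold change of -0.37 (SE 0.16, interval -0.76 to 0.01, edgeR adjusted p = 0.473), and Axin2 of 0.05 (SE 0.12, interval -0.24 to 0.34, adjusted p = 0.953).

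In the gastrocnemius 7 members passed the filter and 1 was called, against 6.63% of the 15456 genes tested, and 2 stood at an unadjusted p under 0.05, against 41.6%. Oat was at 260, 298, 285 and 304 CPM in WT and at 162, 194, 184 and 182 CPM in Mtm1-/y muscle. It was lower in every Mtm1-/y library, with no overlap, as in 30.7% of all genes. The log2 fold change was -0.67 (SE 0.08, interval -0.84 to -0.49, edgeR adjusted p = 0.000425), below the fold threshold, and it passed an adjusted p of 0.05, as 29% of all genes did, under each of 12 alternatives (6.8e-14 to 0.00237).

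Cyp2e1 was the called member, from low levels. It was at 12.8, 5.55, 5.66 and 5.74 CPM in WT and at 11.4, 11.9, 12.8 and 28.9 CPM in Mtm1-/y gastrocnemius. One library of each genotype stood above its group, and the groups overlapped. The log2 fold change was 1.12 (SE 0.37, interval 0.29 to 1.95, edgeR adjusted p = 0.0467), the DESeq2 adjusted p was 0.0503, and the adjusted p ranged from 0.0130 to 0.122 over 12 alternatives. Without Mtm1-/y replicate 4 the value was 0.70 (adjusted p = 0.104), and without WT replicate 2, 3 or 4 the adjusted p was 0.122, 0.111 and 0.114. Adipocyte markers were higher by group too: Adipoq was at 3.54 to 13.6 CPM in WT against 14.0 to 21.9 CPM in Mtm1-/y. The 5 adipocyte markers, none of them at 0, summed to 10.1 to 40.2 and 32.5 to 68.1 CPM. In the order of the Cyp2e1 values above, Adipoq was at 5.48, 5.25, 3.54 and 13.6 CPM in WT. In Mtm1-/y it was at 21.6, 14.0, 20.9 and 21.9 CPM. The part of adipocyte markers in the Cyp2e1 value was not tested.

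The other 5 members tested in the gastrocnemius had log2 fold changes from -0.15 (Gls2) to 0.12 (Hal), none past an adjusted p of 0.05, and Glul was at -0.04 (SE 0.19). Cyp1a2, below the filter, was at 0.612, 0.184, 0.719 and 0.222 CPM in WT and at 0.0240, 0, 0.251 and 0.0269 CPM in Mtm1-/y. DESeq2, run without that filter, called it as 6.46% of its genes (log2 fold change -2.55, adjusted p = 0.0344), with Alb at 17.9 to 61.0 CPM in WT against 2.40 to 34.3 CPM in Mtm1-/y muscle.

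The genotype effect on Oat differed past the threshold between liver and gastrocnemius with all libraries included, and leaving out most of the single libraries ended that call. In 1 edgeR fit of the 8 groups the difference of the log2 fold changes, liver minus gastrocnemius, was 1.05 (SE 0.30, interval 0.43 to 1.68, adjusted p = 0.0427), past the threshold as in 2.27% of 18498 genes. In a fit of the 2 tissues alone it was 1.06 with an edgeR adjusted p of 0.0917. With each of the 15 libraries of both tissues left out in turn it ran from 0.76 to 1.27, and the adjusted p was no longer under 0.05 in 11 of these fits. The lowest value, 0.76 (edgeR adjusted p = 0.0906), was that without Mtm1-/y liver 2. None of the other 9 members passed, and against the diaphragm and the heart 0 members and 0% of all genes did, with Axin2 at 1.58 for liver minus heart (edgeR adjusted p = 0.634) and 0.90 without WT heart 4. That heart held 12.3 CPM of Axin2 against 1.74 to 5.18 in the other WT hearts, and without it the log2 fold change of Axin2 in the heart was -0.23.

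In the heart 9 members were tested and 0 were called by edgeR (0.00656% of the 15238 genes tested) or DESeq2 (0.362%), with 3 at an unadjusted p under 0.05, as 8.88% of all genes. Cyp1a2 did not overlap (4.26% of all genes), at 0.338, 0, 0.0656 and 0 CPM in WT against 0.434, 0.475, 0.564 and 0.527 CPM in Mtm1-/y hearts (edgeR adjusted p = 0.546), and Alb beside it was at 0.951 to 25.1 CPM in WT and at 27.9 to 102 CPM in Mtm1-/y hearts. Cyp2e1 was at 27.6, 3.39, 23.5 and 63.0 CPM in WT against 13.9, 7.75, 5.12 and 9.64 CPM in Mtm1-/y hearts. Its log2 fold change was -1.69 (SE 0.68, edgeR adjusted p = 0.546), and -0.98 without WT heart 4. In the same order of libraries, Adipoq was at 21.7, 6.88, 8.13 and 22.4 CPM in WT against 3.22, 2.85, 1.65 and 2.86 CPM in Mtm1-/y hearts. The part of either marker was not tested. Hal was at 10.3, 5.96, 12.4 and 9.48 CPM in WT against 4.96, 5.34, 6.49 and 2.37 CPM in Mtm1-/y hearts, the groups overlapping in 1 value each (log2 fold change -0.99, SE 0.31, edgeR adjusted p = 0.546). Glul (-0.08, SE 0.13) and Oat (-0.04, SE 0.08) had the narrowest intervals there.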

How the data were processed

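The authors extracted RNA from whole tissue, prepared stranded TruSeq mRNA libraries (350 ng of RNA) and read 50 bases from 1 end. Adapter trimming used cutadapt 1.10 and alignment used STAR 2.5.3a (mm10). Uniquely aligned reads were assigned to genes by htseq-count 0.6.1p1 (Ensembl 96), with the strand setting not given in the sources used here. The deposited values are these raw counts. Columns were matched to samples by title. Members were matched by symbol and placed with GENCODE M21. Members and lists were chosen with earlier results of these data known.

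The genotypes were compared within each tissue by edgeR 4.0.16 in R 4.3.3 after filterByExpr (count minimum 10) and TMM, with the two-sided quasi-likelihood F test and p-values adjusted after Benjamini and Hochberg. Calls needed an adjusted p under 0.05 with a log2 fold change beyond 1 in either direction. WT tissues were compared in 1 fit of the 15 WT libraries, and genotype effects between tissues in 1 fit of the 8 groups. Alternatives were DESeq2 1.42.0, limma 3.58.1 voom with sample weights, other size factors, no filter, fits of all 30 libraries, the replicate number as a block, and leaving out each library. The albumin covariate, DESeq2 with a liver left out, the fit of 8 groups with each library left out and the values without single libraries of doubt were added after seeing the data. The zone balance used a prior count of 2. Pairs were tested by exact permutation with SciPy 1.17.1. Fits were tested on simulated counts.

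All members were named. Other list genes named are the 2 most abundant and the 2 with the smallest p per list where none passed, and the 2 nearest genes by likeness (at least 5 CPM in 1 group; those of Sds are not reported here); Adipoq, Dbp, Arntl and Nr1d1 were also chosen for values seen. Replicate livers differed beyond sampling noise, and counts limit the precision of Axin2 and Lgr5 most. The p-values of the fits weigh a difference against the spread between the libraries sampled.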

Additional observations from a re-analysis of the deposited data

Results flagged for a closer look

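In groups of 4 the highest or lowest library was set against the others. Of 60 groups of 4, 9 held a value whose gap to the nearest library passed Dixon's limit for 4 values, which chance passes in about 1 in 20 groups. In WT gastrocnemius, replicate 4 had 382 CPM of Glul (the others 297 to 311) and replicate 1 had 12.8 CPM of Cyp2e1 (5.55 to 5.74). In Mtm1-/y gastrocnemius, replicate 4 had 28.9 CPM of Cyp2e1 (11.4 to 12.8), and replicate 3 had 0.251 CPM of Cyp1a2 (0 to 0.0269) and 1.56 CPM of Lgr5 (0.181 to 0.264).

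In WT diaphragm replicate 3, Lgr5 was low at 1.11 CPM (1.51 to 1.56), and the same library had the lowest Alb, 294 CPM. In the hearts, Sds was at 20.2 CPM in WT replicate 4 (0.285 to 2.70) with Alb at only 2.79 CPM, and at 4.07 CPM in Mtm1-/y replicate 2 (0.0362 to 0.121). Oat was at 318 CPM in Mtm1-/y heart replicate 4 (291 to 294).

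The genotype effect on Oat differed between tissues, with a log2 difference of liver minus gastrocnemius of 1.05 (edgeR adjusted p = 0.0427 in the fit of 8 groups). With 1 library left out the adjusted p was no longer under 0.05 in 11 of 15 fits, among them that without Mtm1-/y liver 2 (0.76). Oat was lower in 4 of 4 Mtm1-/y gastrocnemius libraries than in any WT library, while the liver groups overlapped.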

How the results depend on the processing

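In the liver 0 members were called under every alternative run. The count over all liver genes moved from 0 to 12 with DESeq2, 6 without a filter on low counts, and 11 (edgeR) or 28 (DESeq2) with all 30 libraries fitted together, and leaving out 1 library gave 0 to 8 (8 without Mtm1-/y replicate 1). DESeq2 with 1 library left out gave 7 to 105, with 105 without Mtm1-/y replicate 1. In the gastrocnemius the called member Cyp2e1 was lost without the filter (0 members called), and 2 members passed the adjusted p alone. Leaving out 1 library gave 0 to 1, and without WT replicate 2 the called member was Cyp1a2 and not Cyp2e1. For Oat, liver minus gastrocnemius, 0 members passed in the fit of the 2 tissues alone, and 0 to 1 with 1 library left out. The pairs fell from 2 to 0 without Mtm1-/y liver 2, where a single pair could not pass on its own. The WT counts stood at 8 against gastrocnemius, 7 to 9 against diaphragm and 8 to 9 against heart with 1 library left out. The causes were not tested.

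Replicate numbers are shared by the genotypes, but deviations of same-numbered libraries did not correlate over 0.1 in every pair (liver 0.337, -0.0482 and 0.233), so they were not taken as pairs. With the replicate block 0 members were called in the liver and 0 in the gastrocnemius (Cyp2e1 at an edgeR adjusted p = 0.0665), and Axin2 in WT liver against diaphragm was -0.88, no longer called.

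Differences near 0 changed sign. In the liver, voom with sample weights gave -0.063 for Cyp1a2 and -0.13 for Lgr5. With 1 liver left out, Cyp1a2 ran from -0.16 to 0.15, Lgr5 from -0.17 to 0.38, Cyp2f2 from -0.0043 to 0.31, Hal from -0.077 to 0.088 and Gls2 from -0.14 to 0.36 (DESeq2: -0.15 to 0.16, -0.16 to 0.39, 0.0042 to 0.32, -0.080 to 0.10 and -0.13 to 0.37). In the gastrocnemius Glul ran from -0.21 to 0.12, Cyp2f2 from -0.16 to 0.36, Hal from -0.084 to 0.33 and Gls2 from -0.32 to 0.13. In the heart Glul ran from -0.18 to 0.021, Oat from -0.072 to 0.012 and Gls2 from -0.26 to 0.21. In the diaphragm Glul ran from -0.34 to 0.054, Cyp1a2 from -3.67 to 0.32, Axin2 from -0.028 to 0.11, Lgr5 from -0.61 to 0.26, Cyp2f2 from -2.80 to 0.51 and Gls2 from -3.34 to 0.32, and with log2 Alb as a covariate Glul was 0.019, Cyp1a2 0.085, Lgr5 0.020, Cyp2f2 0.32 and Gls2 0.075. With 3 and 4 livers, intervals of members other than Glul and Hal still held log2 changes of about 0.5 or more.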
